A study of Oryza sativa Indica Group and Oryza sativa Japonica Group with 20 samples.

Results

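The histone modifications H3K4me3 and H3K27me3 were compared within the meiocytes of 1 rice cultivar, IR64, from the 4 peak lists of its CUT&Tag libraries (2 for H3K4me3 and 2 for H3K27me3), out of 20 samples and 8 meiocyte peak lists in the series. The members were taken by cultivar, cell type and antibody as the sample titles give them, and no measured value was used to choose them. The H3K4me3 libraries were made with the Abcam ab8580 antibody and the H3K27me3 libraries with the Diagenode C15410195 antibody, all 4 from wild-type plants of the indica group. Male meiocytes at prophase of meiosis I came from spikelets of 0.4 to 0.6 cm, and were collected as callose-bound clusters by capillary after being pressed out of the anther wall. The other meiocyte lists are those of the cultivar Azucena, also wild type, which served for 1 comparison at the end. Each library stands for many cells, so neighbouring peaks of both marks do not show that 1 cell or 1 nucleosome carried both. The lists name no genes, and the labelled cell type was not checked against marker genes here.

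H3K4me3 is deposited around the transcription start sites of active genes by SET-domain methyltransferases, and usually forms compact islands at the 5′ end of a gene. H3K27me3 is written by Polycomb repressive complex 2 and, in plants, mostly covers the bodies of silenced developmental genes as single-gene islands or short arrays of neighbouring genes. In CUT&Tag, a transposase tethered to the bound antibody cleaves and tags the DNA next to it. In plant meiosis H3K4me3-rich promoter regions are of interest because crossovers often form near them.

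Sequencing depth was uneven between the H3K27me3 libraries, and this bears on every comparison that follows. The authors' table gave 12.41 and 13.71 M uniquely aligned reads (M, units of 1000000 reads) for H3K4me3 replicates 1 and 2, against 47.91 and 9.0 M for H3K27me3 replicates 1 and 2. The H3K4me3 lists held 34583 and 33717 peaks, and the H3K27me3 lists 12629 and 10134. H3K27me3 replicate 1 thus had 5.32 times the reads of replicate 2 but 1.25 times its peaks. The background coverage that the folds and p-values of the peaks imply was 7.71 and 7.01 reads in the H3K4me3 libraries, against 2.4 and 1.85 reads in the H3K27me3 libraries, so that of H3K27me3 replicate 1 was only 1.30 times that of replicate 2. The median coverage at a summit was 45 and 39 reads for H3K4me3, against 24 and 23 reads for H3K27me3. By both coverage measures the H3K27me3 lists were the shallower ones, in spite of the 47.91 M reads of replicate 1. Whether depth shaped a difference between the marks was tested only as far as the alternatives given beside each result go.

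The first comparison asked how far each H3K27me3 summit (the position of highest signal in a peak) lay from the nearest H3K4me3 summit. H3K27me3 summits fell into a group close to H3K4me3 and a broad remainder. From H3K27me3 replicate 1, the median distance was 2259 bp to the summits of H3K4me3 replicate 1 and 2578 bp to those of replicate 2. From H3K27me3 replicate 2, it was 1322.5 and 1604 bp. The shallower H3K27me3 library lay closer to H3K4me3 in both pairings. An H3K4me3 summit stood within 1000 bp of 38.5% of the H3K27me3 summits of replicate 1 and of 45.5% of those of replicate 2, each averaged over both H3K4me3 lists, which gives 42.0% ± 4.99 (SD, n = 2). Within 200 bp the shares were 19.5% and 23.9%. At the other end, 8.29% and 4.83% of the H3K27me3 summits had no H3K4me3 summit within 20000 bp.

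Close summits were packed towards zero distance rather than spread over the first kilobase. In the 4 pairs of libraries, 1432 to 1540 H3K27me3 summits lay within 100 bp of an H3K4me3 summit, and 129 to 156 lay between 900 and 1000 bp. Between 2000 and 3000 bp, each 100 bp held 65.7 to 83.4 summits on average. The first 100 bp therefore held 18.2 to 23.1 times the number of a step at 2000 to 3000 bp, in each of the 4 pairs.

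Replicates of 1 mark give the precision with which a summit was placed. The median distance to the nearest summit of the other replicate was 145 and 138 bp for H3K4me3, against 285 and 191 bp for H3K27me3. Among summits with such a partner within 1000 bp, the medians narrowed to 114 and 115 bp for H3K4me3, and to 146 bp in both directions for H3K27me3. For H3K27me3 summits with an H3K4me3 summit within 1000 bp, the median distance between the marks was 196 bp from replicate 1 and 187.5 bp from replicate 2, averaged over the H3K4me3 lists. In that near group of the full lists, summits of different marks were set further apart than replicates of either mark. Of these near pairs, 67.8% and 67.2% of H3K4me3 replicate pairs lay within 200 bp. The share was 61.4% of H3K27me3 replicate pairs in both directions. It was 50.7% and 52.5% of the pairs of an H3K27me3 with an H3K4me3 summit. With each list cut to an equal number of its most significant peaks, the difference from H3K27me3 replicates was smaller. Seen from H3K4me3, the medians between the marks then overlapped those of H3K27me3 replicates. The near medians were then 79 bp for H3K4me3 replicates, and 140 and 143 bp for H3K27me3 replicates. Between the marks they were 144 to 164.5 bp from H3K27me3, and 139 to 154 bp from H3K4me3.

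Seen from H3K4me3, nearness was rarer. Of the H3K4me3 summits, 14% of replicate 1 and 13.7% of replicate 2 had an H3K27me3 summit within 1000 bp, a mean of 13.8% ± 0.199 (SD, n = 2). The median distance to H3K27me3 was 14118 and 14184.5 bp, and 39.2% and 39.3% of H3K4me3 summits were over 20000 bp from any H3K27me3 summit. The H3K4me3 replicates were nearly the same in each of these values.

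The share of H3K27me3 summits near H3K4me3 was lower when the H3K4me3 list was cut to its strongest peaks. Such a cut changes the length of the list and the strength of its peaks together, and their parts were not tested. When each library was limited to its 10134 peaks of highest significance, the number in the shortest list, an H3K4me3 summit lay within 1000 bp of 12% and 13.2% of H3K27me3 summits. The reverse share at that number was 12.6% and 12.1%. H3K27me3 replicate 2 kept its whole list here, so its shares of 45.5% and 13.2% differ only in the H3K4me3 peaks, of which 10134 of 34583 and of 33717 were kept. Between replicates of 1 mark the shares at equal number were 69.3% and 69.4% for H3K4me3, against 74.0% and 75% for H3K27me3. With peaks ranked by fold in place of significance, a choice made after seeing the data, 16.3% and 17.3% of H3K27me3 summits lay within 1000 bp of H3K4me3.

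**Figure D1:**
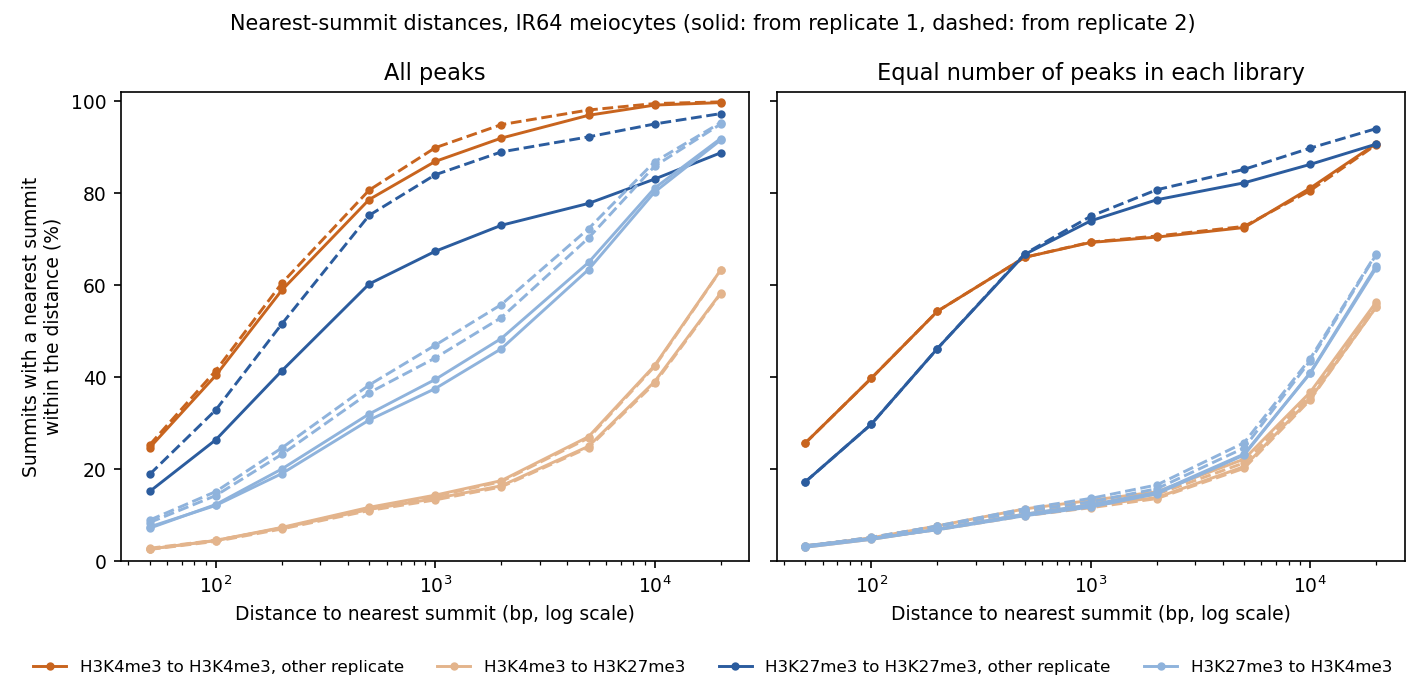
Share of summits (vertical axis, percent) whose nearest summit lies within a distance (horizontal axis, bp, log scale) for all peaks (left) and for 10134 peaks in each library (right), with 1 line per ordered pair of IR64 libraries. In the full lists the lines from H3K27me3 to H3K4me3 pass 38.5% and 45.5% on average at 1000 bp, between the lines of same-mark replicates and those from H3K4me3 to H3K27me3, and at equal number both cross-mark sets run together to about 12% at 1000 bp.

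H3K27me3 peaks near and far from H3K4me3 differed in shape. Sorted by distance from H3K27me3 replicate 1 to H3K4me3 replicate 1, peaks within 200 bp had a median width of 740 bp and those at 200 to 1000 bp one of 830 bp. The medians were 549 bp at 1000 to 5000 bp, 530.5 bp at 5000 to 20000 bp and 467 bp beyond 20000 bp. In H3K27me3 replicate 2 the same 5 classes had medians of 672.5, 764, 565, 573 and 552 bp. In both libraries the peaks within 1000 bp were the wider ones, and the narrowing beyond 20000 bp was larger in replicate 1.

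Fold enrichment did not follow the same order. It is the authors' ratio of signal at the summit over local background. In H3K27me3 replicate 1 the median fold was 4.47 within 200 bp of H3K4me3 replicate 1, 4.12 at 200 to 1000 bp, 3.68 at 1000 to 5000 bp, 3.97 at 5000 to 20000 bp and 4.41 beyond 20000 bp. Replicate 2 had 4.57, 4.23, 3.85, 4.04 and 4.12 over the same classes. The lowest fold thus stood at 1000 to 5000 bp in both libraries. In replicate 1 the most distant peaks reached a fold near that of the closest ones with less signal, at a median summit coverage of 19 reads over a local background of 2.91, against 27 reads over 4.53 within 200 bp.

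H3K4me3 peaks near H3K27me3 stood on a lower background than the rest of their list. In H3K4me3 replicate 1, those within 200 bp of H3K27me3 replicate 1 had a median local background of 8.29 reads, against 12.1 reads for those over 20000 bp away. In H3K4me3 replicate 2 the values were 7.41 and 11 reads. The median summit coverage was also lower, 41 against 47 reads in replicate 1 and 35 against 41 reads in replicate 2. The median fold was nevertheless higher close to H3K27me3, at 3.87 against 3.46 in replicate 1 and 3.66 against 3.36 in replicate 2. By these medians, H3K4me3 peaks next to H3K27me3 had fewer reads at the summit and a higher fold than those far away.

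**Figure D2:**
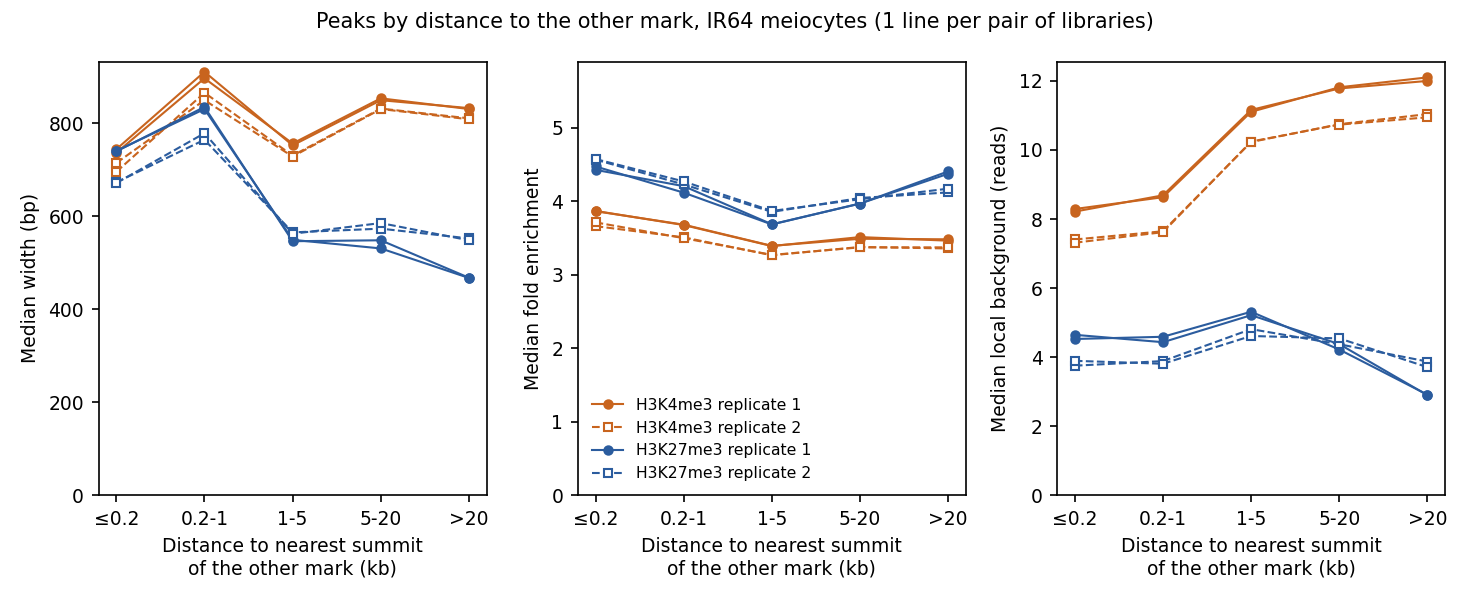
Median width (bp), median fold enrichment and median recovered local background (reads) of the peaks of each IR64 library by distance (kb) to the nearest summit of the other mark, with 1 line per pair of libraries and the H3K4me3 lines in orange. The H3K4me3 local background is 8.29 reads within 0.2 kb and 12.1 reads beyond 20 kb in replicate 1, and H3K27me3 peaks are widest at 0.2 to 1 kb in every pair.

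Peaks without a counterpart in the other replicate were set apart next, because the H3K27me3 lists differed in length. No partner within 1000 bp was found for 13.1% and 10.1% of the peaks of H3K4me3 replicates 1 and 2, against 32.6% and 16.0% of those of H3K27me3 replicates 1 and 2. The unpartnered peaks were the narrow and weak ones in all 4 libraries. Their median width was 422 and 406 bp for H3K4me3, against 412 and 405 bp for H3K27me3. Partnered peaks measured 892 and 848 bp for H3K4me3, against 769 and 690 bp for H3K27me3.

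The unpartnered peaks of H3K27me3 replicate 1 also lay elsewhere. These 4123 peaks had a median distance of 5281 bp to H3K4me3, and 20.3% had an H3K4me3 summit within 1000 bp. For the 1622 unpartnered peaks of replicate 2 the values were 2320.75 bp and 35.8%. Partnered peaks were alike in both libraries, at 1287.25 and 1264.25 bp and 47.3% and 47.4%. Partnered peaks lie by definition within 1000 bp of each other in the replicates, so this likeness largely follows from how they were chosen. A difference between the H3K27me3 replicates in distance to H3K4me3 could thus appear almost only among the unpartnered peaks. Of the unpartnered peaks of replicate 1, 21.4% stood in the quintile of 1 Mb bins with fewest H3K4me3 peaks, against 11.5% of its partnered peaks. In replicate 2 the shares were 10.5% and 11.4%. The part of the larger read number of replicate 1 in this was not tested.

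The spacing of neighbouring peaks of the same mark was compared over the 4 libraries with a two-sided exact permutation test. With 2 libraries per mark, 0.333 is the smallest p that the 6 relabellings allow, so no difference could pass a threshold of 0.05. The labels do not say that replicates came from separate plants, and these p-values measure only the spread between libraries, which may be technical. The 7 measures of spacing, clustering, width and fold were tested as 1 family, with Benjamini-Hochberg adjustment.

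H3K4me3 peaks followed each other more closely than H3K27me3 peaks in the full lists. The median distance between neighbouring summits was 6760 and 6933 bp for H3K4me3, against 14635 and 17043 bp for H3K27me3. The groups did not overlap, at a ratio of 0.432 (exact permutation p 0.333, adjusted 0.389). Distances under 5000 bp made up 34.9% and 33.6% of all H3K4me3 distances, against 23.4% and 21.3% for H3K27me3. This ratio was 1.53 (exact permutation p 0.333, adjusted 0.389), again without overlap.

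The spread of the distances told the marks apart in another way. The 10th percentile was nearly the same, 1752 and 1620 bp for H3K4me3 against 1685 and 1775 bp for H3K27me3. The 90th percentile was 22654 and 23111 bp for H3K4me3, against 79242 and 98025.5 bp for H3K27me3. H3K27me3 thus had neighbours as tight as the closest H3K4me3 neighbours, and much longer stretches between its more isolated peaks. Distances under 2000 bp made up 12.1% and 13% for H3K4me3, against 12.4% and 11.5% for H3K27me3, and these groups overlapped. At 5000 to under 10000 bp, where H3K4me3 had its commonest distances with 33.8% in both replicates, H3K27me3 had 17.2% and 15.7%.

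Among close neighbours, distances of 1000 to under 2000 bp had a larger share for H3K27me3 than for H3K4me3. H3K4me3 replicates 1 and 2 had 3267 and 3226 distances of that size, and 7878 and 6945 in the 3 times wider class of 2000 to under 5000 bp. H3K27me3 replicate 1 had 1245 distances of 1000 to under 2000 bp and 1383 of 2000 to under 5000 bp, and replicate 2 had 894 and 992. The narrower class thus held nearly as many distances as the wider one for H3K27me3, and far fewer for H3K4me3. Whether such close peaks were pieces of 1 island was not tested.

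The coefficient of variation of the distances (CV, the SD over the mean) describes how uneven the spacing is. It would be 1 for independently placed points of even density. It was 1.58 and 1.6 for H3K4me3, against 1.38 and 1.6 for H3K27me3. All 4 libraries were above 1 and the marks overlapped, at a ratio of 1.07 (exact permutation p 1, adjusted 1). Without H3K27me3 replicate 1 the ratio was 0.994, below 1.

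At an equal number of 10134 peaks the order of the marks turned round. The median distance between neighbours was then 23624 and 23892.5 bp for H3K4me3, against 18704.5 and 17043 bp for H3K27me3, a ratio of 1.33. Distances under 5000 bp made up 3.00% and 3.41% for H3K4me3, against 18.7% and 21.3% for H3K27me3, a ratio of 0.160. The CV was 1.22 and 1.19 for H3K4me3, against 1.37 and 1.6 for H3K27me3, a ratio of 0.811. None of these groups overlapped (exact permutation p 0.333 each, the smallest possible). At this number H3K4me3 was limited to its most significant peaks, while H3K27me3 replicate 2 kept its whole list and replicate 1 kept 10134 of 12629 peaks.

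Ranking by fold, chosen after seeing the data, gave the same direction. Distances under 5000 bp then made up 2.1% and 2.25% for H3K4me3, against 11.7% and 21.3% for H3K27me3, a ratio of 0.132. A fold of at least 4 in every library, which kept 12270 and 9732 H3K4me3 peaks against 6523 and 5597 H3K27me3 peaks, gave 3.03% and 2.16% for H3K4me3, against 4.59% and 4.73% for H3K27me3, a ratio of 0.557. Under this filter both marks had few close neighbours.

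**Figure D3:**
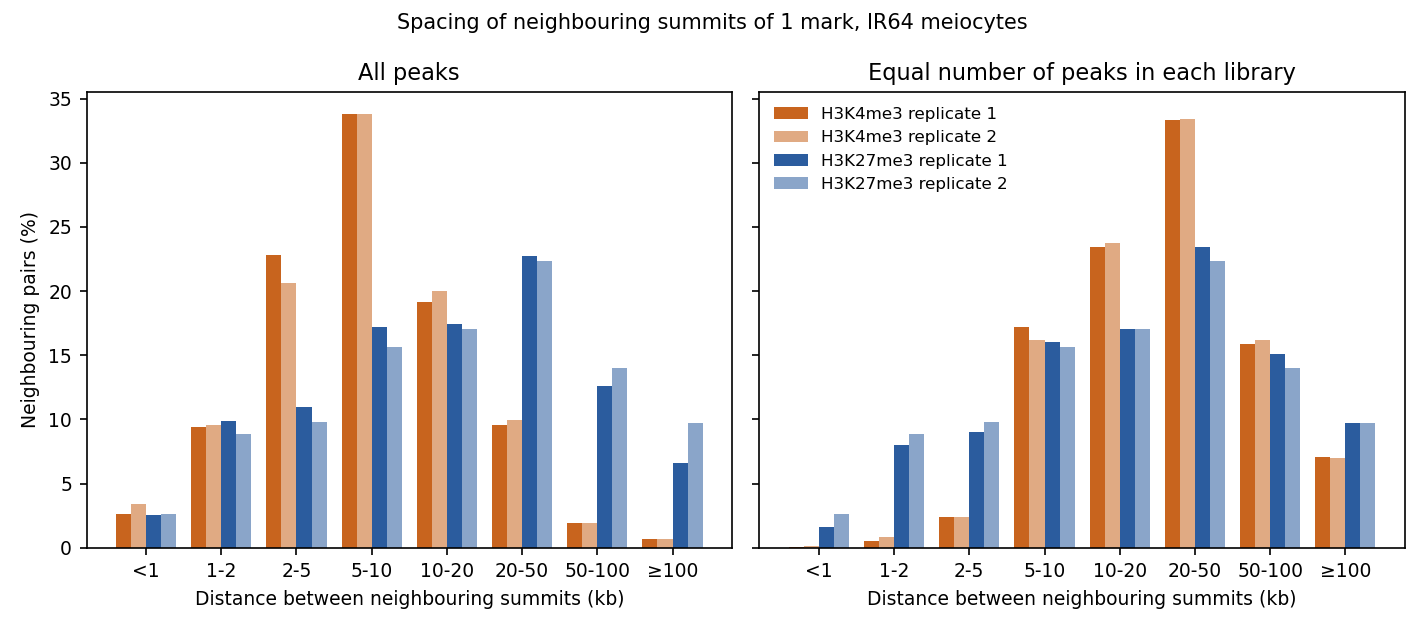
Share of neighbouring summit pairs (vertical axis, percent) by their distance (horizontal axis, kb) for all peaks (left) and for 10134 peaks in each library (right), with 1 bar per IR64 library. With all peaks the H3K4me3 bars are highest at 5 to 10 kb, 33.8% in both replicates, and at equal number 18.7% and 21.3% of H3K27me3 pairs but 3.00% and 3.41% of H3K4me3 pairs lie under 5 kb.

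The order of both marks along the chromosomes was read as a single sequence of summits for each pair of libraries. H3K27me3 provided 22.7% to 27.2% of the summits, and the summit after an H3K27me3 summit was again H3K27me3 in 29.7% to 37.2% of cases over the 4 pairs. H3K4me3 provided 72.8% to 77.3%, and was followed by H3K4me3 in 76.5% to 79.4% of cases. At equal numbers by significance each mark provided 50% of the summits. A summit was then followed by its own mark in 55.8% to 56.2% of cases for H3K4me3, and 55.8% to 56.25% for H3K27me3. In H3K27me3 replicate 1, 31.7% and 32.0% of summits stood in an uninterrupted run of at least 3, and in replicate 2, 21.9% and 23.5%. The longest H3K27me3 run held 18 summits of replicate 1 on chromosome 12, 23088052 to 23227816, and 16 summits of replicate 2 from 23088046 to 23227755. This array, spanning 139764 bp in replicate 1, was the longest H3K27me3 run in each of the 4 pairs of full lists. At equal numbers of peaks the longest H3K27me3 runs lay elsewhere, with 28 summits on chromosome 12, 25690397 to 25764648, in 1 pair and 18 to 22 on chromosome 11 in the others. The longest H3K4me3 runs held 65 and 63 summits when set against H3K27me3 replicate 1, on chromosome 3 from 8768935 to 9201493 and from 8768893 to 9163589. Against H3K27me3 replicate 2 they held 85 and 90 summits, also on chromosome 3, from 5564030 to 6101741 and from 5563996 to 6101577.

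Clustering at a larger scale was measured over 383 bins of 1 Mb. The densest 10% of the bins held 16.3% of the peaks in both H3K4me3 replicates, against 16.4% and 17.9% in the H3K27me3 replicates. The ratio was 0.948 (exact permutation p 0.333, adjusted 0.389), and the gap between the groups was smaller than the spread between the H3K27me3 replicates. With bins of 5 Mb the ratio was 1.10, in the other direction.

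The marks differed in how the unevenness grew with the scale. Between bins of 20000 bp, the variance of the number of peaks over its mean was 1.21 and 1.20 for H3K4me3, against 1.43 and 1.4 for H3K27me3. Between bins of 1 Mb it was 15.4 and 14.8 for H3K4me3, against 3.96 and 5.04 for H3K27me3. Small bins were thus more uneven for H3K27me3 and large bins for H3K4me3, although this ratio also grows with the number of peaks. At 10134 peaks in each library it was 0.906 and 0.905 for H3K4me3, against 1.37 and 1.4 for H3K27me3, in small bins. In bins of 1 Mb it was then 3.14 and 3.04 for H3K4me3, against 3.52 and 5.04 for H3K27me3. In bins of 5 Mb it was 9.23 and 8.72 for H3K4me3, against 6.84 and 12.5 for H3K27me3. With equal numbers by significance H3K27me3 was thus the more uneven mark at 20000 bp and 1 Mb, and the marks overlapped at 5 Mb. This cut kept only the most significant H3K4me3 peaks, while H3K27me3 replicate 2 kept its whole list. With peaks ranked by fold, chosen after seeing the data, the order at 20000 bp and 1 Mb was the same. In bins of 5 Mb the variance over the mean was then 4.01 and 3.57 for H3K4me3, against 5.24 and 12.5 for H3K27me3, without overlap.

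Over the 383 bins, the numbers of peaks of both H3K4me3 replicates had a Spearman rho of 0.989, and those of both H3K27me3 replicates one of 0.915. Between the marks rho was 0.384 to 0.495 in the 4 pairs. These are descriptions over bins that share libraries and lie next to each other. In the quintile of the bins with fewest H3K4me3 peaks, H3K27me3 replicate 1 held 23.5 peaks per bin and replicate 2 held 14.4, a ratio of 1.63. In the quintile with most H3K4me3 peaks they held 34.7 and 29.6, a ratio of 1.17. The excess of replicate 1 over replicate 2 was thus largest where H3K4me3 was sparse. The H3K4me3 replicates had a ratio of 1.02 and 1.03 in the same outer quintiles.

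The densest bins, ranked by the smaller count of the replicates, were different ones for each mark. For H3K4me3 they were chromosome 2, 36000001 to 37000000, with 160 and 161 peaks, chromosome 5, 27000001 to 28000000, with 153 and 152, and chromosome 2, 1 to 1000000, with 149 and 150. By the mean of the replicates, chromosome 3, 37000001 to 38000000, with 162 and 149, would rank above the last of these. The H3K27me3 numbers in these bins were 32 and 27, 22 and 15, and 37 and 29, against a median bin of 32 and 25. For H3K27me3 the densest bins were chromosome 1, 10000001 to 11000000, with 71 and 62 peaks, chromosome 4, 27000001 to 28000000, with 59 and 60, and chromosome 2, 28000001 to 29000000, with 57 and 60. By the mean, chromosome 7, 2000001 to 3000000, with 68 and 50, would rank above the last one here. The first 3 held 79 and 77, 120 and 117, and 101 and 100 H3K4me3 peaks, against a median bin of 88 in both replicates. The genome build of these positions was not given in the sources used here, and they are those of the deposited lists.

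Stretches with no peak of a mark in either replicate were of like length. The longest without H3K4me3 was chromosome 4, 9882157 to 10412779, which is 530623 bp long and held 13 H3K27me3 peaks of replicate 1 and 0 of replicate 2. The next were chromosome 12, 7504081 to 7979436, and chromosome 7, 16314053 to 16746815, each with 4 H3K27me3 peaks of replicate 1 and 1 of replicate 2. In all 3 stretches the H3K27me3 peaks were thus mostly those of the library with more reads. The longest stretch without H3K27me3 was chromosome 3, 19623123 to 20147532, 524410 bp long, with 18 and 17 H3K4me3 peaks. It was followed by chromosome 12, 11391315 to 11903084, with 25 and 21, and chromosome 3, 8764826 to 9202613, with 65 and 63 H3K4me3 peaks. The last of these is the segment of the long H3K4me3 run given above.

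Some H3K27me3 regions present in both replicates stood far from any H3K4me3 summit. Of 8219 such regions, 324 had their midpoint over 20000 bp and 55 over 50000 bp from H3K4me3. The 3 farthest were neighbours on chromosome 4. They lay at 5552386 to 5553289, 5532943 to 5533512 and 5523638 to 5524164, at distances of 148982, 137960 and 128634 bp. Their folds were 4.92 and 5.12, 4.76 and 4.81, and 4.94 and 4.05 in replicates 1 and 2. These 6 values were close to the median fold of the H3K27me3 lists or above it.

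Chromosomes differed more for H3K4me3 than for H3K27me3 in peak density. H3K4me3 was densest on chromosome 3, with 107 and 106 peaks per Mb, and sparsest on chromosome 11, with 72.2 and 70.1. H3K27me3 was densest on chromosome 11, with 40.3 and 30.4 peaks per Mb, and sparsest by the mean of its replicates on chromosome 5, with 29.4 and 22.0. The chromosome poorest in H3K4me3 was therefore the richest in H3K27me3, in both replicates of each mark. The order of the 12 chromosomes had a Spearman rho of 0.972 between H3K4me3 replicates and of 0.594 between H3K27me3 replicates, and one of -0.203 between the marks.

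Uneven spacing was placed differently too. For H3K4me3 the CV of the distances between neighbours was highest on chromosome 4, at 1.94 and 1.93, and lowest on chromosome 1, at 1.25 in both replicates. For H3K27me3 it was highest on chromosome 12, at 1.50 and 1.83, and lowest by the mean on chromosome 7, at 1.32 and 1.4. On both of its extreme chromosomes the H3K27me3 replicates were further apart than those of H3K4me3. The longest distance between H3K27me3 neighbours was 606086 bp in replicate 1 and 1375375 bp in replicate 2, both on chromosome 3. Between H3K4me3 neighbours it was 531704 and 531631 bp, both on chromosome 4. On chromosome 4 the densest 10% of its bins held 21.3% and 20.7% of the H3K4me3 peaks, against 18.3% and 21.9% of the H3K27me3 peaks, the highest chromosome mean for both marks.

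The nearness of the marks also varied by chromosome. Of the H3K4me3 summits of chromosome 11, 21.8% and 21.5% had an H3K27me3 summit within 1000 bp, and on chromosome 3, 10.4% and 10.5%. H3K27me3 summits were nearest to H3K4me3 on chromosome 10, where 43.6% and 53.6% lay within 1000 bp, and least near by the mean on chromosome 12, with 35.0% and 41.6%. Replicate 2 was above replicate 1 on both of those chromosomes, as in the genome-wide values.

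**Figure D4:**
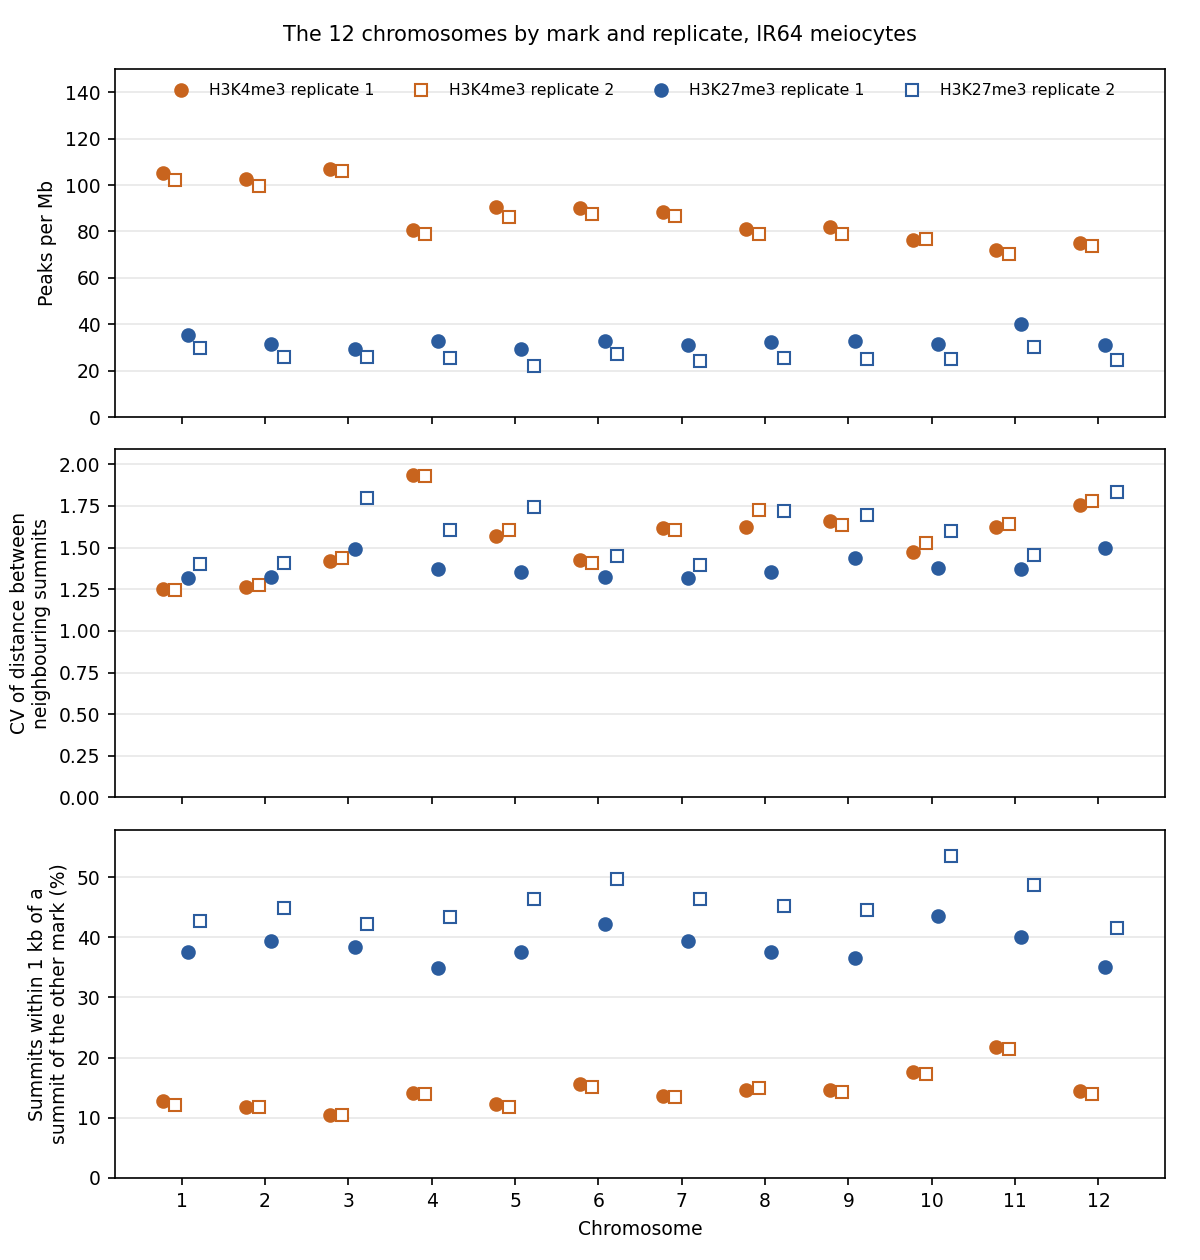
Peaks per Mb, CV of the distance between neighbouring summits, and share of summits within 1 kb of a summit of the other mark (percent) on each of the 12 chromosomes, with 1 symbol per IR64 library (orange H3K4me3, blue H3K27me3, filled replicate 1, open replicate 2). Chromosome 11 has the lowest H3K4me3 density, 72.2 and 70.1 per Mb, and the highest H3K27me3 density, 40.3 and 30.4 per Mb, and chromosome 4 has the highest H3K4me3 CV.

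The called H3K4me3 peaks were wider than the called H3K27me3 peaks in IR64, where the H3K27me3 lists had the lower summit coverage. The part of coverage in these widths was not tested. Nor was it tested whether 1 H3K27me3 island was called as several peaks. With peaks within 500 bp merged, the ratio of the median widths was 1.35. The median width was 826 and 800 bp for H3K4me3, against 611 and 631 bp for H3K27me3, without overlap, at a ratio of 1.31 (exact permutation p 0.333, adjusted 0.389). Peaks over 2000 bp made up 3.04% and 2.41% of the H3K4me3 lists, against 1.56% and 1.02% of the H3K27me3 lists. The ratio was 2.12 (exact permutation p 0.333, adjusted 0.389), and it was 2.68 without H3K27me3 replicate 1. At 10134 peaks per library the median width was 1102 and 1083 bp for H3K4me3, against 703 and 631 bp for H3K27me3, a ratio of 1.64. Unlike the spacing, the width kept its direction at equal number, but this setting could hardly have turned it round. It removed mainly H3K4me3 peaks of low significance, and H3K27me3 replicate 2 kept its whole list. A −log10 q of at least 5 also raised the medians, to 904 and 902 bp for H3K4me3, against 742 and 764 bp for H3K27me3. Under 400 bp, near the shortest peak of each list, lay 13.6% and 15.5% of H3K4me3 peaks, against 23.6% and 22.1% of H3K27me3 peaks.

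Fold enrichment had the opposite order in the full lists. Its median was 3.52 and 3.38 for H3K4me3, against 4.07 and 4.19 for H3K27me3, without overlap, at a ratio of 0.835 (exact permutation p 0.333, adjusted 0.389). The upper tail of H3K27me3 was also longer, with 15 peaks of fold 10 or more in each H3K4me3 replicate, against 103 and 82 in the H3K27me3 replicates. As shares of the lists these were 0.0434% and 0.0445% for H3K4me3, against 0.816% and 0.809% for H3K27me3. Summit coverage ran the other way, since a fold is set against the local background. That background had a median of 11.4 and 10.4 reads for H3K4me3, against 4.46 and 4.16 reads for H3K27me3. The 99th percentile of summit coverage was nevertheless 89 and 76 reads for H3K4me3, against 172 and 166 reads for H3K27me3. At equal number the median fold was 4.97 and 4.62 for H3K4me3, against 4.41 and 4.19 for H3K27me3, a ratio of 1.11. The order in fold thus depended on which peaks were kept.

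Width and fold went together in each list, more so for H3K4me3. Across peaks, which are not independent, their Spearman rho was 0.486 in both H3K4me3 replicates, against 0.281 and 0.330 in the H3K27me3 replicates. From the narrowest to the widest quintile of the peaks, the median fold of H3K4me3 replicate 1 was 2.70, 3.22, 3.72, 4.06 and 4.08, and that of H3K27me3 replicate 1 was 3.55, 3.82, 3.97, 4.41 and 4.63. A partner in the other replicate was found for 61.5% and 70.8% of the narrowest quintile of H3K4me3 peaks, against 34.2% and 64.4% of the narrowest quintile of H3K27me3 peaks. In the widest quintile the shares were 95.3% and 95.2% for H3K4me3, against 94.3% and 96.4% for H3K27me3. Wide peaks thus recurred between replicates about equally for both marks, and narrow ones least in H3K27me3 replicate 1.

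**Figure D5:**
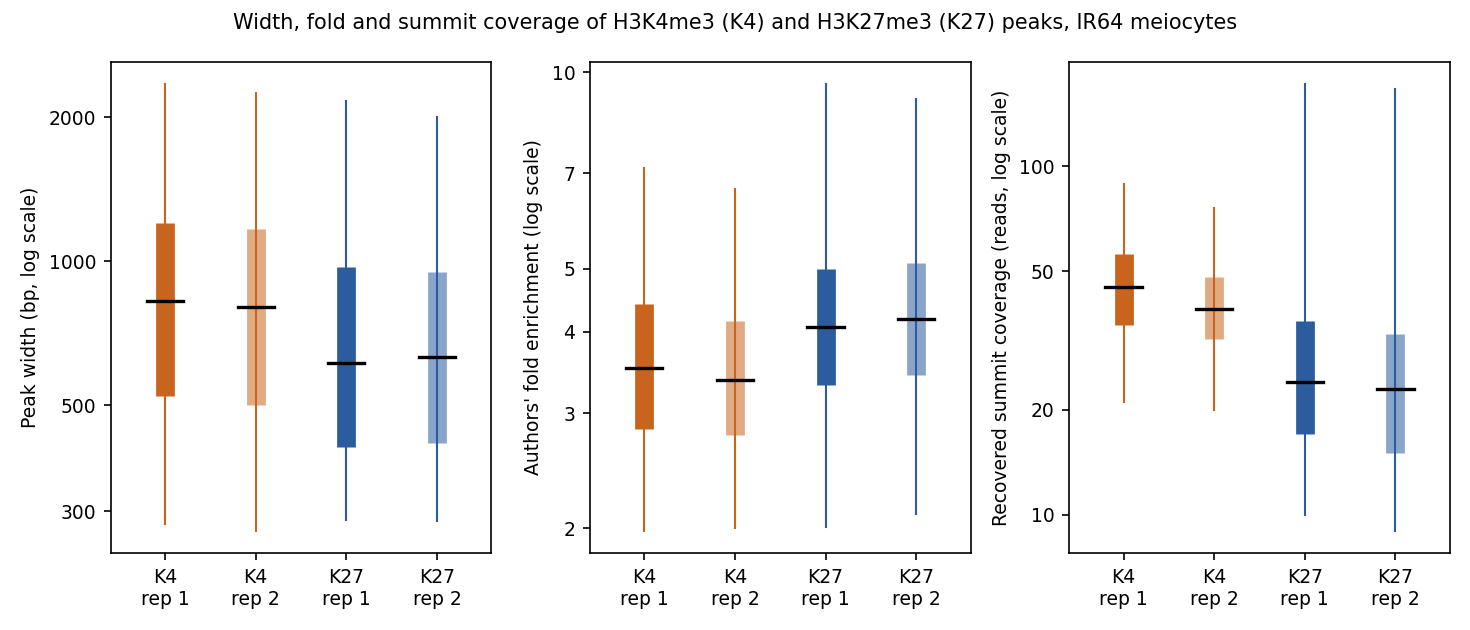
Peak width (bp), the authors' fold enrichment and the recovered summit coverage (reads) in each IR64 library, all on log scales, with the median as a black line, the middle 50% as a bar and the 1st to 99th percentile as a thin line. H3K4me3 medians lie above H3K27me3 medians for width (826 and 800 against 611 and 631 bp) and summit coverage (45 and 39 against 24 and 23 reads) and below them for fold (3.52 and 3.38 against 4.07 and 4.19).

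The widest regions held in both replicates were of like size for both marks. For H3K4me3 they were chromosome 5, 30334851 to 30338938, chromosome 2, 768498 to 772301, and chromosome 7, 3694489 to 3698197, of 4088, 3804 and 3709 bp, and none held an H3K27me3 peak. For H3K27me3 they were chromosome 1, 21217760 to 21221593, chromosome 6, 32368212 to 32372026, and chromosome 5, 14761149 to 14764727, of 3834, 3815 and 3579 bp. The H3K4me3 peaks in them numbered 2 in each replicate, 0 and 1, and 0 in both. The folds of the widest H3K27me3 region were 4.98 and 5.07, and those of the next ones were 1.93 and 1.77, and 2.33 and 2.17. Over 3000 bp there were 33 of 34583 and 16 of 33717 H3K4me3 peaks, against 8 of 12629 and 2 of 10134 H3K27me3 peaks. As shares of their lists, these values overlapped between the marks.

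The contrast between the marks was finally set beside that of Azucena meiocytes, each cultivar in its own coordinates, with the cultivar labels permuted within each mark. The smallest p of this exact permutation test is 0.0556. The ratio of H3K4me3 to H3K27me3 was 2.12 in IR64 and 0.416 in Azucena for the share of peaks over 2000 bp, a difference of 2.37 on the log2 scale (exact permutation p 0.0556, adjusted over the 7 measures 0.0778). For distances under 5000 bp the ratio was 1.53 in IR64, against 0.798 in Azucena, and for the median fold it was 0.835 in IR64, against 1.06 in Azucena (exact permutation p 0.0556 and adjusted 0.0778 each). In these 3 measures the marks stood in opposite order in the cultivars. The median distance between neighbours (0.432 in IR64 and 0.887 in Azucena) and the CV (1.07 in IR64 and 0.820 in Azucena) reached the same p. The share in the densest bins (exact permutation p 0.833) and the median width (exact permutation p 0.278) did not.

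Coverage differed between the cultivars for H3K27me3. Its background coverage was 2.4 and 1.85 reads in IR64, against 6.08 and 5.9 reads in Azucena, and its median summit coverage was 24 and 23 reads in IR64, against 51 reads in both Azucena replicates. H3K4me3 background coverage was 7.71 and 7.01 reads in IR64, against 6.28 and 6.58 reads in Azucena. The part of coverage in the differences was not tested. When the lists of a cultivar were limited to the length of the shortest, 10134 peaks in IR64 and 17312 in Azucena, only the width measures had a p of 0.0556 in this exact permutation test (adjusted 0.194), which for the median width had been 0.278 with all peaks, with ratios for peaks over 2000 bp of 3.02 in IR64 and 0.617 in Azucena. For distances under 5000 bp the marks then had a ratio of 0.160 in IR64, against 0.252 in Azucena (exact permutation p 0.556), both below 1. The median fold then had a ratio of 1.11 in IR64, against 1.25 in Azucena (exact permutation p 0.389), both above 1, and at a fold of at least 4 it had one of 0.951 in IR64, against 0.962 in Azucena (exact permutation p 0.611). At a −log10 q of at least 5 the ratio for distances under 5000 bp was 1.64 in IR64, against 0.693 in Azucena. For the median fold it was 0.798 in IR64, against 1.04 in Azucena (exact permutation p 0.0556 and adjusted 0.0778 each). The opposite order of the marks was thus seen for these measures in the full lists and at that −log10 q. It was seen neither at equal numbers nor at a fold of at least 4.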

How the data were processed

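The deposited data were 1 peak list per library and a table of read numbers. Per the file layout, the deposited lists (narrowPeak) gave the fold enrichment at the summit (a ratio), its −log10 p and −log10 q, a score and the summit position. The authors' table gave read counts, as clean, aligned and uniquely aligned reads in M, and peak numbers. These equalled the numbers of peaks used for IR64. For Azucena they were 30257 and 31140 for H3K4me3, and 17362 and 17623 for H3K27me3. The Azucena peaks used, on the 12 chromosomes, were 30232 and 31090, and 17312 and 17570. The smallest −log10 q was 2.01 to 2.03 in the 4 IR64 lists. The submitters' processing notes name MACS2 2.1.0, Bowtie2, Bismark 0.22.3 and fastp 0.20.1, with no roles. Build, control library and duplicate handling are not given in the sources used here. Another assembly's gene table was not used.

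Distances were taken between summits on the 12 chromosomes, whose lengths were the last base of any peak (387.903 Mb in all). Reproducible regions were merged regions holding a peak of each replicate, with an overlap of at least 1 bp. Each measure is 1 value per library. Summit coverage and local background were solved from the fold and the p of a peak, assuming a Poisson tail with 1 added to both terms of the fold, for −log10 p under 250, from a background of 1 upwards. Summit coverage came out whole, within 0.05, in 100% of these peaks. The lowest background shared by at least 5% of peaks was taken as the background coverage. The functions for distances, spacing, dense bins, merging, reproducible regions and recovered coverage were tested on simulated data with known answers. So were the permutation test between the marks, the replicate block and the adjustment. The selection of equal numbers, the runs and the permutation of cultivar labels were not tested in this way.

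Alternatives were a −log10 q of at least 5, a fold of at least 4, equal numbers of peaks, peaks over 10000 bp from chromosome ends, merging within 500 bp, midpoints, other bins and thresholds, each library left out, and a replicate block. Ranking by fold was chosen after seeing the data. The members, measures and tests were chosen with earlier results of these data known. Named regions are the 3 densest 1 Mb bins, 3 longest empty stretches and 3 widest reproducible regions per mark, and the 3 H3K27me3 regions farthest from H3K4me3. The labels do not say that same-numbered libraries of the marks belong together, so the numbers were not taken as pairs. The differences between replicates 1 and 2 over 383 bins had a Pearson r of -0.05 between the marks, which cannot decide this. Python 3.11.15 with numpy 2.4.6, pandas 2.3.3, scipy 1.17.1 and matplotlib 3.10.9 was used.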

Additional observations from a re-analysis of the deposited data

Results flagged for a closer look

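In 3 measures the marks stood in opposite order in the cultivars, with every H3K4me3 library on one side of every H3K27me3 library in IR64 and on the other side in Azucena. The log2 ratio of H3K4me3 to H3K27me3 in IR64 minus that in Azucena was 2.37 for the share of peaks over 2000 bp, 0.94 for the share of distances between neighbours under 5000 bp, and -0.34 for the median fold. The difference itself was tested by permuting the cultivar labels within each mark, with an exact permutation p of 0.0556 for each, the smallest possible, and 0.0778 after adjustment over 7 measures. The difference in distances under 5000 bp turned round at a fold of at least 4 and at equal numbers of peaks. For the median fold the marks stood in the same order in both cultivars under those settings, with ratios of 0.951 in IR64 and 0.962 in Azucena at a fold of at least 4 (exact permutation p 0.611), and 1.11 in IR64 and 1.25 in Azucena at equal numbers (exact permutation p 0.389). Of the 3 measures, only the share over 2000 bp kept the opposite order under both settings. At a −log10 q of at least 5, each of the 3 kept it. H3K27me3 background coverage was lower in IR64 than in Azucena, and its part in these differences was not tested.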

How the results depend on the processing

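Of 83 alternatives to the ratios of H3K4me3 to H3K27me3, 71 kept their direction and 12 turned it round, and of 21 alternatives to the differences between cultivars, 6 turned round. No p could pass 0.05 in this design. For the median distance between neighbours the ratio was 1.33 at equal numbers of peaks and 1.26 when these were ranked by fold. For the CV it was 0.926 at a fold of at least 4, 0.811 at equal numbers and 0.787 ranked by fold. For distances under 5000 bp it was 0.557, 0.160 and 0.132 under the same 3 settings, and for the median fold 1.11 at equal numbers by either ranking. For the densest bins it was 1.10 with bins of 5 Mb. Leaving out 1 library gave 0.402 to 0.468 for the median distance, 0.994 to 1.15 for the CV, 1.46 to 1.61 for distances under 5000 bp, 0.909 to 0.991 for the densest bins, 1.29 to 1.33 for the median width, 1.75 to 2.68 for peaks over 2000 bp and 0.818 to 0.852 for the median fold. With a replicate block the ratio of median distances was 0.433 and that of peaks over 2000 bp 2.15 (exact permutation p 0.5 each, the smallest possible), and no direction changed. The share of H3K27me3 summits near H3K4me3 was 22.0% at a fold of at least 4, 12.6% at equal numbers, 16.8% ranked by fold, 21.7% within 200 bp, 67.7% within 5000 bp, and 38.5% to 45.5% without 1 library. The share of H3K4me3 summits near H3K27me3 was 10.9% at a −log10 q of at least 5, 12% at a fold of at least 4, 12.4% at equal numbers, 16.5% ranked by fold, 14.2% from midpoints, 7.15% within 200 bp, 25.9% within 5000 bp, and 13.4% to 14.2% without 1 library. The log2 ratio in IR64 minus that in Azucena turned to 0.10 for the median distance, -0.052 for the CV and -0.38 for distances under 5000 bp at a fold of at least 4, to -0.65 for the last at equal numbers, and for the densest bins to -0.024 at a −log10 q of at least 5 and -0.040 at a fold of at least 4. The causes were not tested. The narrowest peaks were the least shared between replicates of each mark, and the effect of read depth was not tested.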
